A study of Rattus norvegicus with 6 samples.

Results

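Class I histocompatibility molecules carry short peptides from inside the cell to the cell surface, where cytotoxic T cells and natural killer cells read them. In the rat they are encoded by the RT1 genes, together with the class II genes whose products present engulfed material and are mostly made by professional antigen-presenting cells. Peptides are cut by the proteasome, whose catalytic subunits can be exchanged for immunosubunits, carried into the endoplasmic reticulum by the TAP transporter, and loaded onto a heavy chain paired with beta-2-microglobulin. The testis is known as a place where immune responses are held in check, and Sertoli cells, the somatic cells that nurse the germ cells, are known for a part in that protection.

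The genes described here were chosen by name from the annotation of the array. They are all genes whose symbol starts with RT1- and 9 genes of antigen processing (B2m, Tap1, Tap2, Tapbp, Psmb8, Psmb9, Psmb10, Psme1 and Psme2), which came to 44 of 14506 named genes. Of the 44, 26 were class I symbols, 9 were class II symbols (RT1-Ba, RT1-Bb, RT1-Ha and those starting with RT1-D) and 9 were the processing genes. All 44 entered the comparison, since no gene was removed for low signal. Primary cultures that the labels call Sertoli cells were compared between rats aged 9 days and rats aged 21 days, and each age has 3 arrays. The testes were freed of their capsule and digested, the cells were cultured with 10% serum, and after 24 hours fresh medium was given to purify them again. GEO files the series under binding by array, whereas the labels give total RNA as the molecule, and the values were read here as expression. The labels give no strain, genotype or treatment, and do not say whether a number from 1 to 3 in a title stands for an animal, a litter or a culture. P-values therefore measure only the spread between these arrays, which may be technical. Values are log2 signals from RMA, a procedure with no true zero and no detection call, so a difference of 1 is a doubling of signal, and signals of different genes were not read as amounts of transcript.

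In whole cultures more of a cell type and more RNA per cell cannot be told apart. Of 19 markers listed for Sertoli cells, 17 were measured, and 9 of these lay below the signal of the median gene (4.66). Wt1 and Clu were high, at 6.98 and 9.28 in the younger cultures, whereas Fshr and Amh were at 2.57 and 3.14. The summed signal of the 17 markers ran from 78.2 to 81.1 at 9 days and from 83.7 to 99.3 at 21 days. Tf (transferrin) and Testin had the largest differences of the list, 3.59 ± 0.78 and 2.28 ± 0.77, and without this pair the sums were 70.0 to 72.0 and 71.1 to 81.0. Of the 17, 15 had a higher mean at 21 days and 2 a lower one, with a median difference of 0.32. Shbg and Inha came next in size, at 1.16 ± 0.61 and 1.03 ± 0.63, whereas Gata4, Inhbb, Rhox5 and Dmrt1 differed by -0.19, -0.02, 0.01 and 0.06. All 9 measured markers of peritubular myoid and smooth muscle cells lay above the median gene, and their mean was 10.26 and 10.07 in the arrays numbered 3 of the younger and older age, against 8.24 to 9.02 in the other 4 arrays. Of 20 macrophage markers 19 lay below the median gene, and the summed signal of the 20 was 62.9 to 64.0 at 9 days and 63.2 to 64.4 at 21 days. Of the 20, 8 had a higher mean at 21 days and 12 a lower one. Mpeg1 differed by 0.45 ± 0.25, or 0.16 without the 21-day-old array numbered 3. Cd14, the one above the median gene, was at 7.78 at 9 days and differed by 0.24 ± 0.21. T and natural killer cell markers were all below the median gene, with sums of 40.2 to 40.8 and 40.6 to 41.1. So were the 8 measured dendritic and B cell markers, with sums of 24.8 to 25.4 and 24.7 to 25.4. All 10 fibroblast markers lay above the median gene, with a mean signal of 8.90 at 9 days and 8.82 at 21 days. They had a lower mean at 21 days for 8 of 10, with a median of -0.14, though Thy1 and Pdgfra differed by 1.03 and -0.73. Leydig, endothelial and germ cell markers had medians of 0.03, 0.01 and 0.00, and among them the Leydig cell marker Hsd11b1 differed by 0.98 without overlap. Of the 7 measured Leydig cell markers 5 lay below the median gene, whereas Star was at 11.01 at 9 days. The part of these cell types in the results was not tested.

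The stretches of DNA before the genes are shown first, because the classes differ in their matches to short motifs. A window from 250 bases before to 50 bases after the start of the gene was found for 40 of the 44 genes in RefSeq (build GRCr8). The 4 without a window were RT1-CE7, RT1-DMb, RT1-M1-4 and RT1-M2. Each is written 5′ to 3′ on the strand of its gene, and capitals mark matches on either strand to an interferon response element (GAAA, any 2 bases, GAAA), a kappa B site (GGG, any 2 bases, TT, any base, CC) or a CCAAT box (CCAAT). B2m encodes the light chain of class I molecules and Tapbp encodes tapasin, which holds the heavy chain to the transporter. Tap1 encodes one chain of that transporter, and Psmb9 and Psmb8 encode immunosubunits. RT1-CE5 and RT1-CE11 had the largest differences between the ages among class I genes, and RT1-Bb had the largest among class II genes.
B2m (chr3:129549080-129549379, plus strand): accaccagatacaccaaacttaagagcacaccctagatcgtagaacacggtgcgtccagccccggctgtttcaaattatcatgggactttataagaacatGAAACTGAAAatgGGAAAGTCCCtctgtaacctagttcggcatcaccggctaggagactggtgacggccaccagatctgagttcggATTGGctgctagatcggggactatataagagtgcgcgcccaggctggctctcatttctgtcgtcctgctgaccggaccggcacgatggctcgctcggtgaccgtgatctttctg
Tapbp (chr20:4967828-4968127, minus strand): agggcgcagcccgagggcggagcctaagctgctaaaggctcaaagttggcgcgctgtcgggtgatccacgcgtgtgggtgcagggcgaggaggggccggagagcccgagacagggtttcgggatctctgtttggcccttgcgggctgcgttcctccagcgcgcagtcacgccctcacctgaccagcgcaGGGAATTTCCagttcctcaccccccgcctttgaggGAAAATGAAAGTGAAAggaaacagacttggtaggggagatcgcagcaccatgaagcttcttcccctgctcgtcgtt
Tap1 (chr20:4668494-4668793, minus strand): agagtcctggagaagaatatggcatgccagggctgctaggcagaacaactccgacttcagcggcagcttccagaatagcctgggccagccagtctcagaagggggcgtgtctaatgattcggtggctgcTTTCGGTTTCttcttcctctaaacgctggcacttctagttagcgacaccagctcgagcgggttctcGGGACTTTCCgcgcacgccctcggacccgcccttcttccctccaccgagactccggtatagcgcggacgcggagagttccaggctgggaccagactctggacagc
Psmb9 (chr20:4668750-4669049, plus strand): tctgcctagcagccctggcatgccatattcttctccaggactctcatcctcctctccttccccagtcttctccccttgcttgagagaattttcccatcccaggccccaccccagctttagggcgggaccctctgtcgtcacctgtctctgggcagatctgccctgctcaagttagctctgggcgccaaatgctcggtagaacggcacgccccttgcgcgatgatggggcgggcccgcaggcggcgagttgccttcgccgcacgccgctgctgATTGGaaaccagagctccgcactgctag
Psmb8 (chr20:4656982-4657281, minus strand): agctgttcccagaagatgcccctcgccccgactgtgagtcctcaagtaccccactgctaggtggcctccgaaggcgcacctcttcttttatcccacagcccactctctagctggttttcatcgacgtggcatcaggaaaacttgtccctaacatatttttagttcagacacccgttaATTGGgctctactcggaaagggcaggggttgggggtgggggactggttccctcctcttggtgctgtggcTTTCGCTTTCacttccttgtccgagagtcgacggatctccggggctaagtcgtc
RT1-CE5 (chr20:3484041-3484340, minus strand): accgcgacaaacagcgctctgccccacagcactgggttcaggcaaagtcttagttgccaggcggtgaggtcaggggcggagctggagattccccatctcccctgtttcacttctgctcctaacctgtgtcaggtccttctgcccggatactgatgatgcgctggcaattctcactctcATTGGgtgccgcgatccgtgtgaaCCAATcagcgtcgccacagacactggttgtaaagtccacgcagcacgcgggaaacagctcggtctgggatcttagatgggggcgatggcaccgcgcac
RT1-CE11 (chr20:3363149-3363448, minus strand): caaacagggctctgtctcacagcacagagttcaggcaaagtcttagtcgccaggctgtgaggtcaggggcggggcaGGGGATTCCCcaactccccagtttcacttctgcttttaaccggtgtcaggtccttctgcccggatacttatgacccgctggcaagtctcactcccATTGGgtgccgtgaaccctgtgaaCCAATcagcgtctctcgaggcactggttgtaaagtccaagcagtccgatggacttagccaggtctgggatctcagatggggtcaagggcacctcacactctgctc
RT1-Bb (chr20:4604069-4604368, minus strand): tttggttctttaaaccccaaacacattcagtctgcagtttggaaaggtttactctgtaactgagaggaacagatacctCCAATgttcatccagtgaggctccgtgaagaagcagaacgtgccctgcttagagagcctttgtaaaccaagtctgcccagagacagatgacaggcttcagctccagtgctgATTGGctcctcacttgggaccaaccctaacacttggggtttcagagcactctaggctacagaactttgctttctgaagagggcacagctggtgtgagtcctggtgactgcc

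Exact matches to the interferon response element were found in 7 of the 9 windows of processing genes (B2m, Tapbp, Tap1, Tap2, Psmb8, Psmb10 and Psme2). They were in 3 of 23 class I windows (RT1-N3, RT1-S2 and RT1-S3) and in 0 of 8 class II windows. Of all 33469 windows of this length in the table, 3.92% held one. Near matches were not counted, such as tttcacttct in the RT1-CE5 and RT1-CE11 windows, so a window without a match may hold a variant of the element. In B2m the match GAAACTGAAA began 150 bases before the start and was followed by a kappa B match, GGAAAGTCCC, at 137 bases. Tapbp held a pair of overlapping elements at 26 and 20 bases and a kappa B match at 61 bases. The starts of Tap1 and Psmb9 lay 457 bases apart on opposite strands, so their windows overlapped by 44 bases, and the element TTTCGGTTTC at 121 bases lay on the Tap1 side. In Psmb8 the match spanned the start itself.

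Kappa B matches were in 11 of the 40 windows, against 5% of all windows. The same 10 letters, GGGGATTCCC, made the match in 5 RT1-CE windows (RT1-CE4, RT1-CE10, RT1-CE11, RT1-CE13 and RT1-CE16). The CCAAT box, part of the shared promoter module of histocompatibility genes, was in all 8 class II windows, in 15 of 23 class I windows and in 3 of 9 windows of processing genes, against 37.5% of all windows. Another motif, TGACG, searched on both strands and not in capitals, which resembles another box of that module, was in 8 of the 40, against 21.2% of all. The 9 RT1-CE windows were 41.4% to 88.2% identical over 36 pairs (median 64.4%), and the closest were RT1-CE13 and RT1-CE16. Class I genes are near copies of one another and the array's probes for them may be shared, so the signal of a single RT1 symbol is uncertain, and the symbols are not independent of each other. A match is a string of letters and not a site shown to be bound.

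Signals of these genes were mostly somewhat higher in the cultures from older rats, but no gene passed the test. Of the 44, 39 had a higher mean at 21 days and 5 a lower one, where 46.5% of all 14506 genes were higher. The median difference was 0.13 on the log2 scale, against -0.01 over all genes. By class it was 0.28 for the 9 processing genes, 0.14 for the 26 class I symbols and 0.09 for the 9 class II symbols. Of these, 0 processing genes, 17 class I symbols and 8 class II symbols lay below the median gene. The part of signal level in this order was not tested. The class I median was 0.07 without the 21-day-old array numbered 2 and 0.20 without the 21-day-old array numbered 3. Without the same arrays the class II median was 0.07 and 0.15. The processing median was 0.13 without the 9-day-old array numbered 3 and 0.15 without the 21-day-old array numbered 1, but 0.43 without the 9-day-old array numbered 2. None of the 44 passed an adjusted p of 0.05 in limma, nor did any of the 14506 genes (0% called), and each of the 44 had an adjusted p of 1. At an unadjusted p under 0.05, 6 of the 44 were higher and 0 lower, where 1.45% of all genes were higher and 1.52% lower. In a fit blocked by replicate number 7 of the 44 were higher and 0 lower, where 3.29% of all genes were higher and 4.45% lower. The 6 without the block were B2m, Tapbp, RT1-CE5, RT1-CE7, RT1-CE13 and RT1-Bb.

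For 6 of the 44 the lowest older value lay above the highest younger one, and for 0 of the 44 the reverse held. Over all genes these shares were 2.74% and 2.98%. They were B2m, Tapbp, RT1-CE5, RT1-CE7, RT1-M5 and RT1-Bb. In 16 of the 44 the older array was higher in each of the 3 pairs of the same number, against 10.7% of all genes. The median difference of the 44 was 0.08, 0.13 and 0.06 in the pairs numbered 1, 2 and 3. It fell to 0.07, with 32 higher, 11 lower and RT1-M2 equal, without the 21-day-old array numbered 2. Among the 19 genes with a mean signal above the median gene 18 were higher, with a median of 0.20, where 36.8% of the 7253 genes above it were higher.

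**Figure D1:**
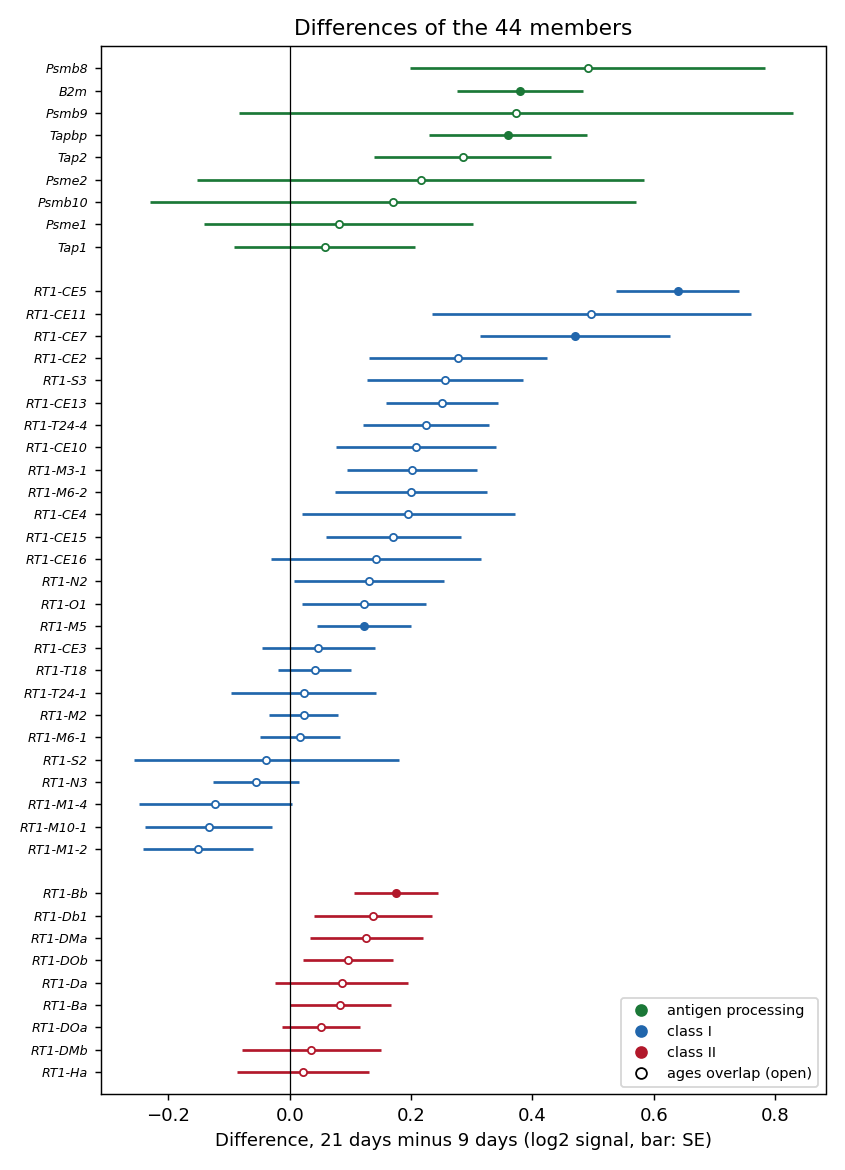
Difference in log2 signal between 21 and 9 days for each of the 44 genes, with the SE from limma as a bar, ordered within class. Filled points mark genes whose 3 values at one age do not overlap the 3 at the other, and 39 of the 44 points lie to the right of 0.

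**Figure D2:**
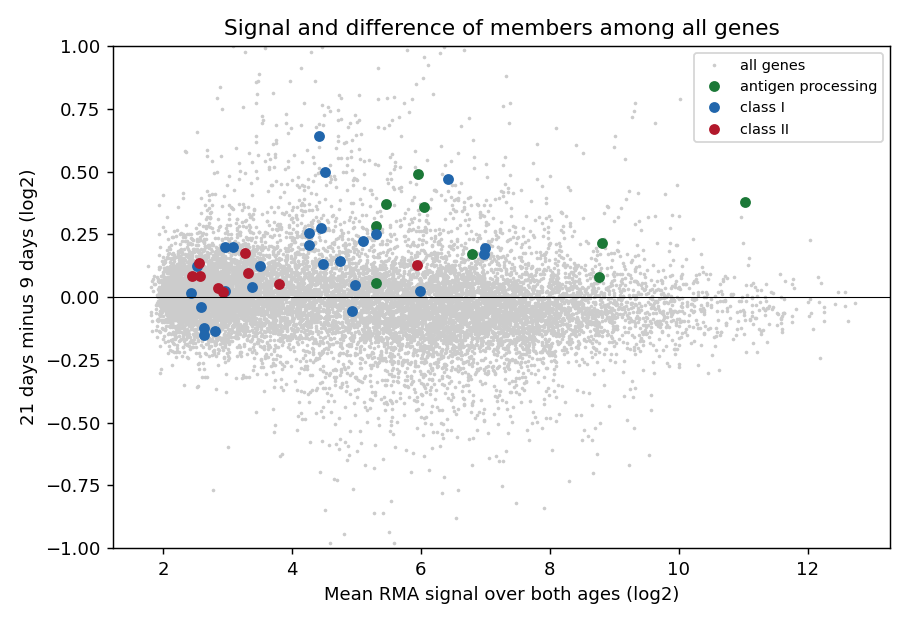
Difference between the ages against the mean signal of each gene, both on the log2 scale, for all genes (grey) and the 44 genes by class. B2m lies at the far right at a difference of 0.38, most class II genes lie at the left near 0, and 62 genes beyond a difference of 1 in size are outside the axis.

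B2m, the light chain without which class I molecules do not reach the surface, had one of the highest signals on the array, above 99.4% of the other genes measured. It was at 10.86, 10.92 and 10.74 at 9 days in the arrays numbered 1, 2 and 3, and at 11.10, 11.15 and 11.40 at 21 days. All older arrays lay above all younger ones. The difference was 0.38 ± 0.10 (log2, SE, n = 3 each), and 0.29 without the 21-day-old array numbered 3. Its pairs differed by 0.25, 0.23 and 0.66. The summed Sertoli cell markers were also highest in the older array numbered 3, at 83.7, 89.4 and 99.3 in the older arrays numbered 1, 2 and 3, or 71.1, 76.1 and 81.0 without Tf and Testin, and their part in the signal of B2m was not tested.

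Tapbp, which encodes the loading factor tapasin, followed the same order. Its signal was 5.86, 6.01 and 5.73 in the younger cultures and 6.01, 6.25 and 6.42 in the older. The ages only just missed each other, since the lowest older value exceeded the highest younger one by less than the last digit given. The difference was 0.36 ± 0.13 (log2, SE, n = 3 each), a 1.28-fold difference. Tapbpl, a relative of tapasin that edits peptides, differed by 0.28 ± 0.10 and did not overlap either.

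The chains of the peptide transporter differed less. Tap1 was at 5.24, 5.50 and 5.09 at 9 days and at 5.22, 5.57 and 5.22 at 21 days, so the ages overlapped widely and the difference was 0.06 ± 0.15 (log2, SE, n = 3 each). Without the 9-day-old array numbered 3 it was -0.04, and without the 21-day-old array numbered 2 it was -0.06. Tap2 was at 5.02, 5.33 and 5.12 in the younger cultures and at 5.71, 5.36 and 5.26 in the older. The older array numbered 1 stood above the rest, and the difference of 0.28 ± 0.15 was 0.15 without it.

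Immunosubunits of the proteasome were low in the arrays numbered 3 at both ages. Psmb8, the chymotrypsin-like immunosubunit, was at 6.05, 5.93 and 5.17 at 9 days and at 6.45, 6.38 and 5.79 at 21 days. Each older array exceeded the younger one of its number, by 0.40, 0.45 and 0.62, although the ages overlapped. The difference was 0.49 ± 0.29 (log2, SE, n = 3 each) with an adjusted p of 1 in limma, or 0.387 with the replicate number as a block, and it was 0.22 without the 9-day-old array numbered 3.

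Psmb9, the immunosubunit encoded beside Tap1, was at 5.21, 5.83 and 4.79 in the younger cultures and at 6.26, 5.94 and 4.76 in the older. The difference of 0.37 ± 0.46 (log2, SE, n = 3 each) came mostly from the pair numbered 1, which differed by 1.05, and was 0.07 without the 21-day-old array numbered 1. Psmb10, the trypsin-like immunosubunit, was at 6.74, 7.27 and 6.10 in the younger cultures and at 7.01, 7.38 and 6.23 in the older. The spread between numbers was larger than the step between ages, with a difference of 0.17 ± 0.40 that turned to -0.13 without the 9-day-old array numbered 3 and to -0.08 without the 21-day-old array numbered 2. Within the pairs it was higher each time, by 0.27, 0.11 and 0.13.

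Psme1 and Psme2 encode the subunits of the proteasome activator PA28. Psme1 was at 8.85, 9.01 and 8.31 at 9 days and at 8.88, 9.03 and 8.51 at 21 days, a difference of 0.08 ± 0.22 (log2, SE, n = 3 each). Psme2 was at 8.82, 9.24 and 8.05 at 9 days and at 8.98, 9.35 and 8.43 at 21 days, a difference of 0.22 ± 0.37. Both were lowest in the arrays numbered 3 and highest in those numbered 2 at either age, and without the 9-day-old array numbered 3 they differed by -0.12 and -0.11. Without the 21-day-old array numbered 2 they differed by -0.03 and -0.0022. Within the pairs Psme2 was higher by 0.16, 0.12 and 0.37 and Psme1 by 0.03, 0.01 and 0.20, and with both arrays numbered 3 left out all 9 processing genes had a higher mean at 21 days. A second probe set for Psme2 gave a difference of 0.27, and a second for Psme1, with far lower signal, gave -0.05.

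**Figure D3:**
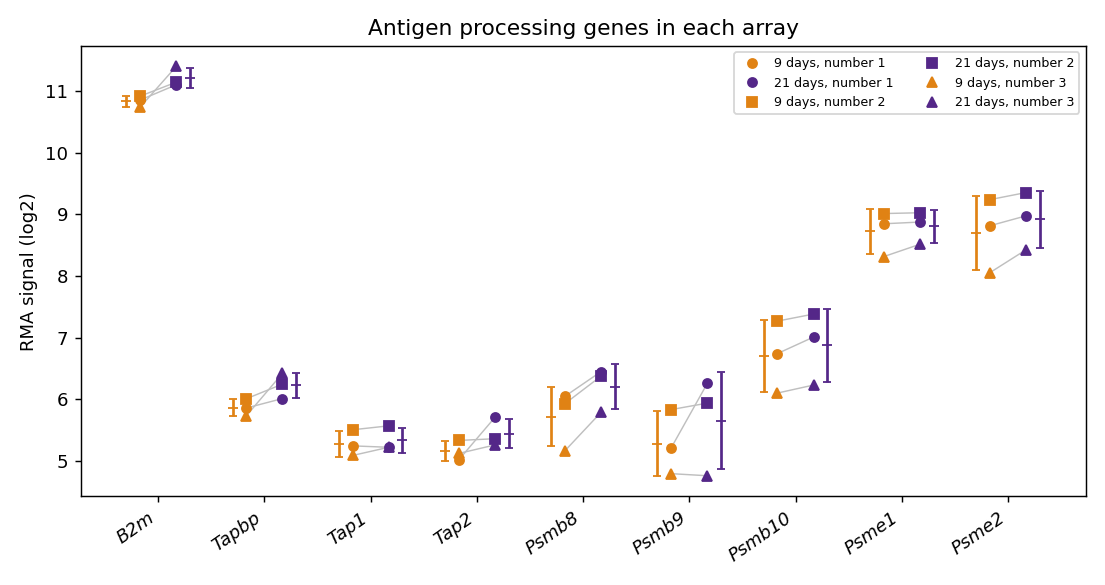
Log2 signal of the 9 processing genes in each of the 6 arrays, with lines joining arrays of the same number and bars for the mean and SD of each age. B2m and Tapbp do not overlap between the ages, whereas each proteasome gene is lowest in the array numbered 3 at either age.

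The mean over the 5 proteasome genes was 7.13, 7.46 and 6.49 at 9 days and 7.51, 7.62 and 6.74 at 21 days. All 5 were lowest in the array numbered 3 at either age. The smooth muscle markers were highest in the same arrays, and their part in this pattern was not tested. Constitutive proteasome genes were also lower there: the mean of 16 measured genes was 8.84, 8.88 and 8.53 in the younger cultures and 8.85, 8.85 and 8.43 in the older. The older mean was higher for 2 of these 16 genes and lower for 14, the median difference was -0.04, and 0 passed. The largest differences among them were -0.10 ± 0.15 for Psma1 and -0.09 ± 0.20 for Psma6, both subunits of the outer ring.

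Each immunosubunit replaces one constitutive subunit, so the log2 signal of the first minus that of the second was compared between the ages. The offset between probe sets has no meaning, but its shift between ages shows unequal change. Psmb8 minus Psmb5 was -1.63, -1.92 and -2.28 in the younger cultures and -1.30, -1.51 and -1.46 in the older. The ages did not overlap. The shift was 0.52 ± 0.20 (SE, n = 3 each), or 0.35 without the 9-day-old array numbered 3 and 0.37 without both arrays numbered 3. An exact two-sided permutation test gave p = 0.10, the smallest that 3 against 3 arrays allow, or 0.30 adjusted over the 3 ratios compared.

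Psmb9 minus Psmb6 shifted by 0.41 ± 0.33, with an exact permutation p of 0.30 (0.45 adjusted) and a lower value at 21 days in the pair numbered 3. Without the 9-day-old array numbered 1 that shift was 0.15. Psmb10 minus Psmb7 shifted by 0.18 ± 0.36, with an exact permutation p of 0.70 (0.70 adjusted), and was higher in each pair, by 0.10, 0.16 and 0.29, but turned to -0.06 without the 9-day-old array numbered 3 and to -0.03 without the 21-day-old array numbered 2. The constitutive partners themselves differed by -0.03 ± 0.19 for Psmb5, -0.04 ± 0.56 for Psmb6 and -0.01 ± 0.13 for Psmb7.

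**Figure D4:**
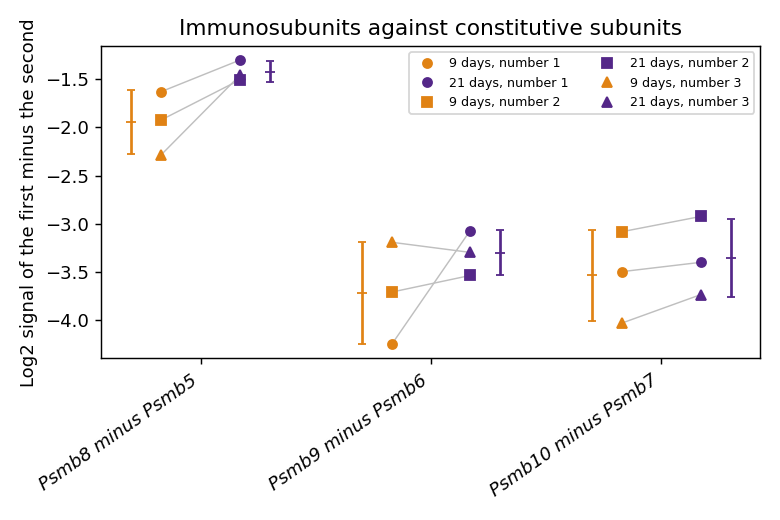
Log2 signal of each immunosubunit minus that of the constitutive subunit it replaces, in the 6 arrays, with lines joining arrays of the same number and bars for mean and SD. Only Psmb8 minus Psmb5 separates the ages, at -2.28 to -1.63 against -1.51 to -1.30.

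Among class I genes the RT1-CE symbols differed most. They are a cluster of closely related heavy chain genes. All 10 measured RT1-CE symbols had a higher mean at 21 days, with a median difference of 0.23, and in the pairs numbered 1, 2 and 3 the medians were 0.08, 0.48 and 0.19. The 21-day-old array numbered 2 was the highest of its age for 8 of the 10, and without it the median was 0.13.

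RT1-CE5 had the largest difference of all 44 genes. It was at 3.98, 4.15 and 4.15 at 9 days and at 4.59, 4.72 and 4.89 at 21 days, with a wide gap between the ages. The difference was 0.64 ± 0.10 (log2, SE, n = 3 each), or 1.56-fold, and stayed between 0.56 and 0.71 when any 1 array was left out. Its unadjusted p in limma was 0.000824 and its adjusted p was 1, or 0.342 with the replicate number as a block. The signal lay below that of the median gene.

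RT1-CE7 also parted the ages, at 6.11, 6.32 and 6.11 at 9 days and at 6.45, 6.98 and 6.53 at 21 days. Its difference was 0.47 ± 0.16 (log2, SE, n = 3 each), or 0.31 without the 21-day-old array numbered 2. A second, dimmer probe set named for it gave 0.26. RT1-CE11 was at 3.98, 4.33 and 4.47 in the younger cultures and at 4.67, 5.27 and 4.33 in the older. The ages overlapped through the pair numbered 3, which ran the other way by -0.13, and the difference of 0.50 ± 0.26 fell to 0.24 without the 21-day-old array numbered 2.

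RT1-CE13 was at 5.10, 5.28 and 5.15 at 9 days and at 5.28, 5.51 and 5.49 at 21 days. It met at the edge, where the highest younger value equalled the lowest older one, and differed by 0.25 ± 0.09 (log2, SE, n = 3 each). RT1-CE2 was at 4.38, 4.34 and 4.23 at 9 days and at 4.29, 4.82 and 4.67 at 21 days, with the older array numbered 1 inside the younger range. It differed by 0.28 ± 0.15, or 0.16 without the 21-day-old array numbered 2.

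The brightest members of the cluster, RT1-CE4 and RT1-CE15, differed less. RT1-CE4 was at 6.77, 6.85 and 7.06 at 9 days and at 6.85, 7.44 and 6.97 at 21 days. RT1-CE15 was at 6.88, 6.86 and 6.93 at 9 days and at 6.93, 7.29 and 6.96 at 21 days. In both, the 21-day-old array numbered 2 stood well above the others, and without it the differences of 0.20 ± 0.18 and 0.17 ± 0.11 (log2, SE, n = 3 each) fell to 0.02 and 0.06.

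RT1-CE16 was at 4.70, 4.70 and 4.63 at 9 days and at 4.79, 5.17 and 4.49 at 21 days, a difference of 0.14 ± 0.17 (log2, SE, n = 3 each) that turned to -0.04 without the 21-day-old array numbered 2. RT1-CE3 was at 4.90, 5.02 and 4.95 at 9 days and at 4.91, 4.93 and 5.17 at 21 days, a difference of 0.05 ± 0.09 that turned to -0.04 without the 21-day-old array numbered 3. RT1-CE10 differed by 0.21 ± 0.13, or by 0.08 without the 21-day-old array numbered 2. These 3 overlapped between the ages.

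**Figure D5:**
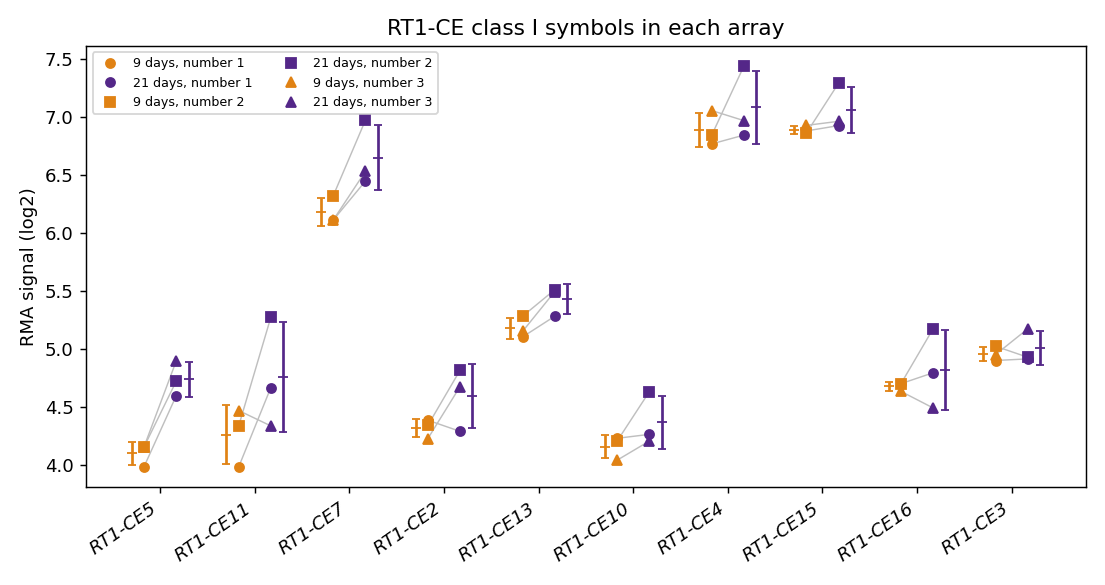
Log2 signal of the 10 RT1-CE symbols in each of the 6 arrays, ordered by difference, with lines joining arrays of the same number and bars for the mean and SD of each age. RT1-CE5 and RT1-CE7 separate the ages, and the 21-day-old array numbered 2 is the highest of its age in 8 of the 10.

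The classical class I genes RT1-A1, RT1-A2 and RT1-A3 share 1 probe set, so no symbol of theirs is among the 44. That probe set was at 5.91, 5.98 and 5.54 in the younger cultures and at 5.97, 6.41 and 5.96 in the older. The ages overlapped, since the older arrays numbered 1 and 3 lay below the highest younger value. The difference was 0.30 ± 0.18 (log2, SE, n = 3 each). The other 3 probe sets named for several RT1-CE genes differed by 0.41 ± 0.24 (RT1-CE1 and RT1-CE12), 0.40 ± 0.21 (these and RT1-CE7) and 0.21 ± 0.10 (RT1-CE13 and RT1-CE14). In all 4 probe sets the 21-day-old array numbered 2 was the highest of its age, and differences without it were not computed. With these 4 added, the median of class I was 0.18, but RT1-CE1, RT1-CE7, RT1-CE12 and RT1-CE13 are then each named by more than 1 of the probe sets counted.

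Only the RT1-A genes were counted as classical here, so the RT1-CE symbols were not. The other class I symbols belong to the M, N, O, S and T families, also non-classical, several of which encode molecules of restricted expression. The 8 RT1-M symbols all lay below the median gene, 4 of them also below the lower quartile of all genes (2.91). RT1-M5 was the only one without overlap, at 3.49, 3.54 and 3.32 at 9 days and at 3.60, 3.56 and 3.55 at 21 days. Its difference was 0.12 ± 0.08 (log2, SE, n = 3 each), about the size of a typical error on this array (median SE 0.11). RT1-M3-1, whose mouse counterpart presents bacterial formylated peptides, differed by 0.20 ± 0.11, and RT1-M1-2 by -0.15 ± 0.09, the lowest of the 44. The other 5 RT1-M symbols ran from -0.13 for RT1-M10-1 to 0.20 for RT1-M6-2. RT1-M2 had the same value, 2.95, in 5 of the 6 arrays, which shows how little these low signals resolve.

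Of the 8 symbols of the N, O, S and T families, 6 were higher at 21 days, with a median difference of 0.08. RT1-S3, of the family that matches mouse Qa-1, which natural killer cells read, was at 3.96, 4.30 and 4.17 at 9 days and at 4.60, 4.30 and 4.30 at 21 days, a difference of 0.26 ± 0.13 (log2, SE, n = 3 each). The older array numbered 1 alone stood above the younger range. RT1-T24-4 was at 5.03, 4.97 and 4.99 at 9 days and at 5.34, 5.31 and 5.01 at 21 days, and differed by 0.22 ± 0.10. Its second probe set gave 0.20, and in both the pair numbered 3 hardly differed.

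RT1-T24-1 was at 6.15, 5.99 and 5.79 at 9 days and at 6.15, 5.96 and 5.90 at 21 days, a difference of 0.02 ± 0.12 (log2, SE, n = 3 each). It followed the number of the array and not the age. RT1-N3 was at 4.97, 4.99 and 4.89 at 9 days and at 4.81, 4.96 and 4.93 at 21 days, a difference of -0.06 ± 0.07. RT1-N2, RT1-O1, RT1-S2 and RT1-T18 overlapped between the ages, with differences of 0.13, 0.12, -0.04 and 0.04.

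Class II genes had low signals at both ages. Of the 9 symbols 8 lay below the median gene and 4 below the lower quartile. All 9 had a higher mean at 21 days, by 0.02 to 0.17, and 4 of 9 were higher in the pair numbered 3, against 7 and 7 in the pairs numbered 1 and 2. RT1-Ba and RT1-Bb encode the chains of the rat counterpart of HLA-DQ. RT1-Bb was at 3.19 in each array of 9 days and at 3.37, 3.45 and 3.27 at 21 days, and its identical younger values leave the spread at that age at 0. The ages did not overlap, and the difference was 0.17 ± 0.07 (log2, SE, n = 3 each). RT1-Ba was at 2.57, 2.51 and 2.51 at 9 days and at 2.65, 2.72 and 2.47 at 21 days, where the older array numbered 3 was the lowest of all 6, and differed by 0.08 ± 0.08.

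RT1-Da and RT1-Db1 encode the chains of the counterpart of HLA-DR. RT1-Da was at 2.42, 2.32 and 2.46 at 9 days and at 2.42, 2.70 and 2.34 at 21 days, a difference of 0.09 ± 0.11 (log2, SE, n = 3 each) that turned to -0.02 without the 21-day-old array numbered 2. RT1-Db1 was at 2.65, 2.38 and 2.46 at 9 days and at 2.55, 2.75 and 2.60 at 21 days, a difference of 0.14 ± 0.10. Both overlapped between the ages.

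RT1-DMa, a chain of the molecule that loads peptides onto class II, was the one class II symbol above the median gene. Its signal was 5.82, 5.83 and 5.98 in the younger cultures and 6.16, 5.93 and 5.93 in the older. The ages overlapped and the difference was 0.13 ± 0.09 (log2, SE, n = 3 each), or 0.05 without the 21-day-old array numbered 1. Its partner RT1-DMb was at 2.84 ± 0.16 and 2.87 ± 0.14 (SD, n = 3 each).

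RT1-DOb, a chain of the inhibitor of that loading, was at 3.20, 3.22 and 3.39 at 9 days and at 3.37, 3.36 and 3.36 at 21 days, a difference of 0.10 ± 0.07. RT1-DOa differed by 0.05 ± 0.06 and RT1-Ha by 0.02 ± 0.11. All 3 overlapped. Cd74, the invariant chain that escorts class II molecules, was at 3.13, 3.10 and 3.19 at 9 days and at 2.82, 3.13 and 3.20 at 21 days, and Ciita, their master regulator, stayed within 2.93 to 3.01 in all 6 arrays. Cd74 lay above 29.1% of all genes and Ciita above 26.5%, and without detection calls such signals cannot be told from background.

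Other genes of the pathway were compared list by list. Of 10 genes for class II presentation outside the RT1 symbols 4 were higher, with a median difference of -0.02 and 0 passing. The largest were -0.46 ± 0.40 (log2, SE, n = 3 each) for the costimulator Cd80, or -0.03 without the 21-day-old array numbered 2, and 0.42 ± 0.19 for the lysosomal protease gene Lgmn, or 0.22 without the 9-day-old array numbered 3. Of 10 further genes of class I loading and trimming 5 were higher, with a median of 0.00 and 0 passing. Besides Tapbpl, the largest was 0.26 ± 0.16 for Erap1, the aminopeptidase that trims peptides, or 0.13 without the 21-day-old array numbered 3. The chaperone genes Calr, Canx and Pdia3 differed by 0.00, -0.05 and 0.05.

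Of 16 measured transcription factors of histocompatibility genes 7 were higher, with a median of -0.02 and 0 passing. Stat2, which carries the interferon signal, differed by 0.25 ± 0.10 (log2, SE, n = 3 each) and Nfyb, a subunit of the factor that binds CCAAT boxes, by -0.23 ± 0.09. Irf1, which binds interferon response elements, was at 5.19, 5.80 and 5.08 at 9 days and at 5.35, 5.91 and 5.44 at 21 days. It was higher in each pair and overlapped between the ages, with a difference of 0.21 ± 0.24, or 0.04 without the 21-day-old array numbered 2. Nlrc5, the class I transactivator, was not analysed here.

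Of 8 measured interferons and receptors 4 were higher, with a median of 0.02 and 0 passing. Ifng and Ifnb1 lay between 2.30 and 2.66 in all 6 arrays, and the largest differences were 0.17 ± 0.15 for the kinase gene Jak2 and -0.12 ± 0.13 for the receptor gene Ifngr2 (log2, SE, n = 3 each). They were 0.06 without the 21-day-old array numbered 1 and -0.04 without that numbered 3. Of 8 class I-like genes outside the RT1 symbols 6 were higher, with a median of 0.05 and 0 passing. Procr, which encodes the protein C receptor, differed by 0.28 ± 0.17 and Fcgrt, which encodes the neonatal Fc receptor, by -0.27 ± 0.27. They were 0.16 without the 9-day-old array numbered 3 and -0.06 without the 21-day-old array numbered 3. Of 25 interferon response genes that are not among the 44, 19 had a higher mean and 5 a lower one. Their median was 0.12 and 0 passed. Bst2 and Irgm had the largest differences of that list, 0.48 ± 0.20 and 0.47 ± 0.22, that of Irgm was 0.27 without the 9-day-old array numbered 3, and 20 of the 25 lay below the median gene.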

How the data were processed

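The authors deposited 1 log2 value per probe set and array, made with RMA per the submitters' processing notes, with version and settings not stated there. RMA corrects background, normalizes between arrays by quantiles and summarises probes. The number of arrays limits the precision. Of 29214 probe sets 15310 name 1 gene, and for 527 genes with several the one with the highest mean was used. The 44 members were matched by Entrez number to RefSeq (GRCr8), which changed 0 of their symbols. Ages came from the titles. They were compared in limma 3.58.1 (R 4.3.3) by lmFit and eBayes, as 21 minus 9 days, two-sided, with Benjamini-Hochberg adjustment over 14506 genes, and this was tested on simulated data. Single ratios were compared by exact permutation (SciPy 1.17.1).

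The main fit, its SEs and the permutation tests did not pair the arrays. Deviations from the age means correlated at 0.439, 0.549 and 0.673 for the numbers 1, 2 and 3 (limit 0.1), so pairs and a fit blocked by number were also given. The median SE over all genes was 0.11 without the block and 0.09 with it. For Psmb10 the SE was 0.40 without and 0.07 with the block, for Psme2 0.37 and 0.08, and for B2m 0.10 and 0.11. Alternatives were the replicate block, other variance models, array weights, keeping genes above the median mean, other scalings, averaged probe sets, added probe sets of several symbols and leaving out arrays; those of the subunit ratios and of the RT1-CE median were added after seeing the data. Values per array are given by rule for the processing genes and for RT1 symbols above the median gene, without overlap, or among the 6 largest differences of their class. Of other pathway lists, the 2 largest differences are named where none passes; Tapbpl, Cd74, Ciita, Calr, Canx, Pdia3, Irf1, Ifng, Ifnb1, the constitutive partner subunits and the cell type markers were named besides. The members and lists were chosen with earlier results of these data known. Figures were drawn with matplotlib 3.10.9.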

Additional observations from a re-analysis of the deposited data

How the results depend on the processing

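With 3 arrays per age, limma called 0 genes and 0 of the 44 in every alternative, apart from 6 genes, none of them among the 44, with the replicate number as a block together with a robust, trended prior. The block alone changed no call: 0 genes passed, and 7 of the 44 were higher at an unadjusted p under 0.05 against 6 without it. The median difference over the 44 stayed above 0 in all alternatives. It was 0.20 with genes below the median mean left out and 0.19 without both arrays numbered 3, and ranged from 0.0731 to 0.1992 when 1 array was left out. The median of the processing genes was 0.20 without both arrays numbered 3 and ranged from 0.13 to 0.43 when 1 array was left out. The difference was over 1.5 times smaller, or turned, without some array for 38 of the 44, a count not made over all genes. In all alternatives 30 kept their sign. With any 1 array left out, the sign held for 30 of the 44 and for 6349 of all 14506 genes. Centring each array on its median, which moved the median of all genes from -0.01 to -0.03, left 35 of the 44 higher and 9 lower, and turned RT1-Ha (-0.0033), RT1-M2 (-0.00250), RT1-M6-1 (-0.0080) and RT1-T24-1 (-0.00205). A further quantile normalization turned RT1-M2 (-0.000730). Without both arrays numbered 3, RT1-CE3 (-0.041), RT1-Ha (-0.011) and RT1-T24-1 (-0.018) turned. Leaving out 1 array gave ranges of -0.13 to 0.49 for Psmb10, -0.12 to 0.23 for Psme1, -0.11 to 0.48 for Psme2, -0.058 to 0.17 for Tap1, -0.036 to 0.31 for RT1-CE16, -0.037 to 0.093 for RT1-CE3, -0.054 to 0.11 for RT1-DMb, -0.021 to 0.16 for RT1-Da, -0.055 to 0.10 for RT1-Ha, -0.21 to 0.0035 for RT1-M1-4, -0.012 to 0.057 for RT1-M6-1, -0.22 to 0.13 for RT1-S2, -0.070 to 0.11 for RT1-T24-1, -0.21 to 0.022 for Psma1, -0.21 to 0.10 for Psma6 and -0.064 to 0.41 for Psmb10 minus Psmb7. The cause of these turns was not tested.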
